A study of Drosophila melanogaster with 3 samples.

Results

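The genes described here are 10 genes of glycolysis and lactate metabolism of Drosophila melanogaster, namely Pgi, Pfk, Tpi, Gapdh1, Gapdh2, Pgk, Pglym78, Eno, Pyk and Ldh. They were chosen by name from 13945 annotated coding genes and 18164 annotated genes in all, with earlier results of these data known, and 9 names were found as such in the annotation while Pyk was found through a synonym as PyK. Occupancy was mapped by chromatin immunoprecipitation and sequencing (ChIP-seq) in whole prepupae, the short stage between the larva and the pupa, with males and females pooled and the age given as unknown. All 3 biological replicates, the series' 1 group, came from 1 stably transgenic line that expressed CG44002 with eGFP at its C-terminal end, and an antibody against GFP was used. The labels call the strain CG34406-GFP, sonication gave fragments of 200 to 800 bp, the control libraries were not analysed here, and no second condition was compared. Whole animals were used, so the tissue of a peak cannot be told. The choice used earlier readouts of these lists, and every summit below was read from them, so counts and ranks are descriptions with no test.

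The authors deposited a pooled list of 30000 peaks, a list of 30000 peaks for each replicate, and a list of 7089 peaks kept by the irreproducible discovery rate (IDR), which measures how well peak ranks repeat between replicates. The IDR peaks were the 7089 peaks of highest signal in the pooled list, so a rank in one is the rank in the other, and rank 1 is the strongest. The signal is the authors' own value for each peak. The sources used here give no scale for it, so it served only to rank and describe peaks within a list. The "top N" of a replicate is its 7089 peaks of highest signal, and read depth is unknown. A summit is the highest point of a peak, and a promoter summit is an IDR summit within 500 bp of any annotated start of a gene. A replicate rank is that of the best-ranked replicate peak that held the pooled summit, so a wide replicate peak can stand for neighbouring summits.

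Glycolysis splits glucose into pyruvate with a small yield of ATP, and lactate dehydrogenase turns pyruvate into lactate while restoring the NAD+ that the glyceraldehyde-3-phosphate dehydrogenase step consumes. Drosophila larvae are known for high glycolysis and lactate production during growth, a state switched on by the nuclear receptor ERR, and metamorphosis is fed from stores. Several enzymes of the pathway have extra gene copies used mainly in the testis, while Gapdh1 and Gapdh2 are a pair of related genes for the same step.

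The sequences around 5 summits are shown because they carry the strongest peak of each of 4 enzymes and the gene-internal peak of Pyk. All are from the release 6 genome (dm6), 5′ to 3′ on the strand of the gene, centred on the summit except that of Eno, which was trimmed to the intron. Capitals mark the string TATAAA on either strand and runs of 7 or more A or T. The Gapdh2 stretch is chrX:15867878-15868078 on the plus strand, the Eno stretch chr2L:1727881-1728019 and the Ldh stretch chr3L:6262796-6262996 on the minus strand, the Pgk stretch chr2L:2751875-2752075 on the minus strand and the Pyk stretch chr3R:22368766-22368966 on the plus strand.
Gapdh2 rank 29: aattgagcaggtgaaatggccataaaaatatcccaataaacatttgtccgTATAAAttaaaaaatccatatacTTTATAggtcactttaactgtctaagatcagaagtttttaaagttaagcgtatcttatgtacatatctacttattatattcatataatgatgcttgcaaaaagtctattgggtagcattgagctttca
Eno rank 74: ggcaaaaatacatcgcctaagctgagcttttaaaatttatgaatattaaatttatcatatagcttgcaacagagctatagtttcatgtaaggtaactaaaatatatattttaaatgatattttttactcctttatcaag
Ldh rank 160: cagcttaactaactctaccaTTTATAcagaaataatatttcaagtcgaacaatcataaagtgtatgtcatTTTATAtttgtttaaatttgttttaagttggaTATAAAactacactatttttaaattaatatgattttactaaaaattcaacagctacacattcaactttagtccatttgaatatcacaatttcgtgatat
Pgk rank 206: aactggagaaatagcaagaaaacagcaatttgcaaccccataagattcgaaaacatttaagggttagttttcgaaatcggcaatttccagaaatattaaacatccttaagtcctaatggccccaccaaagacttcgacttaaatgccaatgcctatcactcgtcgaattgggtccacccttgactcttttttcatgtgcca
Pyk rank 3369: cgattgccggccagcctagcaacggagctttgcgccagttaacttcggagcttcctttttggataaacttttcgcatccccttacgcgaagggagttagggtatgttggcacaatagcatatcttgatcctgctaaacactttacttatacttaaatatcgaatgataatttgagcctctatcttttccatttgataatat
A or T made up 71.1% of the bases shown for Gapdh2, 74.8% for Eno and 76.6% for Ldh. It made up 60.2% of those for Pgk and 58.7% of those for Pyk. TATAAA stood 2 times in the Gapdh2 stretch and 3 times in the Ldh stretch, and not in the other 3.

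CG44002-eGFP peaks lay at the promoters of most of the 10 genes, and those at Gapdh2, Eno and Ldh were among the strongest of the series. A promoter summit was found at 7 of the 10 members (Ldh, Gapdh2, Pgi, Tpi, Pgk, Eno and Pyk), and at 2724 of 13945 coding genes (19.5%). An IDR summit in the gene body or within 5 kb of it was found at 8 of the 10, with Pglym78 added, and at 7080 coding genes (50.8%). Gapdh1 and Pfk had no summit there even in the pooled list of 30000, in which 76.3% of coding genes had one. In the top N of replicates 1, 2 and 3, promoter summits stood at 7, 7 and 6 members, or 6.67 ± 0.577 (SD, n = 3), beside 20.8%, 20.7% and 20.0% of coding genes. Body and flank together held a top N summit at 8, 7 and 8 members, beside 52.8%, 52.9% and 50.8% of coding genes.

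The 7 promoter peaks spread over the whole range of the IDR list. The best promoter summit of the 7 members had a median rank of 1070, against 2808 for all 2724 coding genes with one, whose quartiles were 1211 and 4708. Among those 2724 genes, ordered by that rank, Gapdh2 stood 24, Eno 67, Ldh 133 and Pgk 617, while Tpi stood 1551, Pyk 1591 and Pgi 2646. Over the 3 replicates the ranks of Gapdh2 (16 to 46), Eno (68 to 85), Ldh (126 to 218) and Pgk (845 to 1325) did not overlap. Those of Tpi (2545 to 5787) and Pyk (2402 to 6200) overlapped each other, and both overlapped Pgi (5122 to 20342). Within each replicate list, however, Pgi ranked below both, at 5843, 5122 and 20342 in replicates 1, 2 and 3. Tpi ranked 2545, 3889 and 5787 there and Pyk 2402, 4273 and 6200, so only the order of Tpi and Pyk changed between replicates. The last member inside the IDR list was Pgi at rank 6778, with a signal of 88.6. The nearest one outside was the peak 255 bp upstream of the first Pyk start, at rank 7834 with a signal of 77.3.

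**Figure D1:**
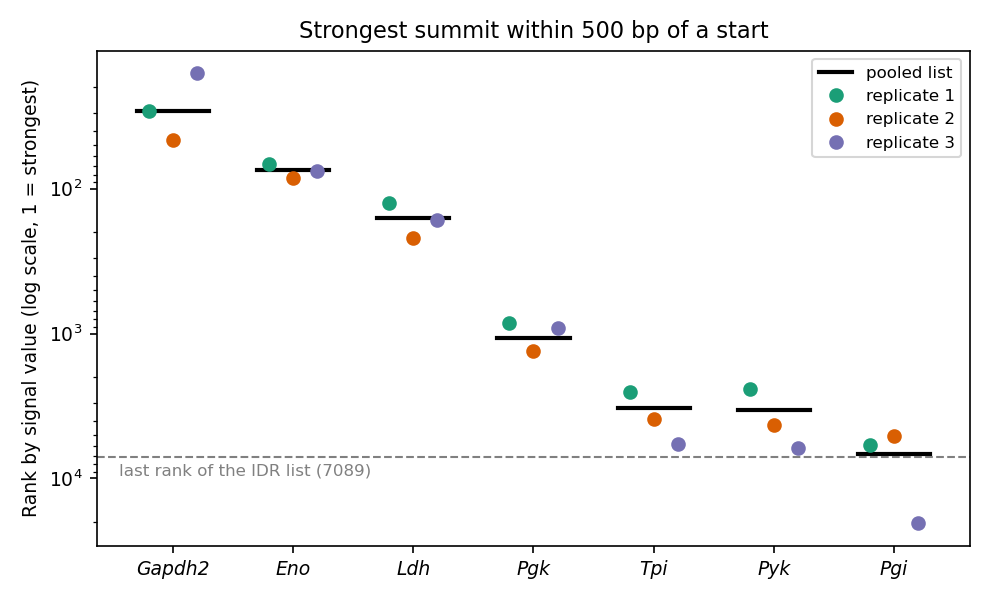
Rank by signal (y axis, log scale, strongest at the top) of the strongest promoter summit of each of the 7 members that had one (x axis); black bars are the pooled list and points the 3 replicates. Gapdh2, Eno, Ldh and Pgk keep apart in all replicates, and the replicate 3 point of Pgi, at 20342, lies below the last IDR rank of 7089.

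Pgi and Pfk carry out the early steps that turn glucose 6-phosphate into fructose 1,6-bisphosphate. Pgi (FBgn0003074, 2R 8910900 to 8914069, minus strand) had a promoter summit 16 bp upstream of its first start, in a peak it shared with lin, whose start lay 439 bp from the summit on the other side. That peak ranked 5843, 5122 and 20342 in replicates 1, 2 and 3, with signals of 43.7, 37.7 and 11.0 in those lists. It was thus in the top N of replicates 1 and 2 and not in that of replicate 3. The stronger Pgi summit, at rank 2416, lay beyond the gene's 3′ end and 109 bp upstream of CG30349, and 419 bp upstream of CCT8, a subunit of the cytosolic chaperonin.

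Pfk (FBgn0003071, 2R 10109740 to 10117457, plus strand) encodes phosphofructokinase, the main regulated step of the pathway. The nearest IDR summit lay 8904 bp upstream of its first start, at rank 6968 and 200 bp upstream of 14-3-3zeta. In the pooled list the nearest was 8168 bp away, at rank 11057. A distance of this size is beyond the 5 kb used here, and with a 10 kb flank Pfk would count as having a summit.

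Tpi, triosephosphate isomerase, brings both products of aldolase into the same path. Its gene (FBgn0086355, 3R 30132981 to 30134599, minus strand) had a single IDR summit, 303 bp upstream of the first start, in a peak at 30134687 to 30135116. The peak ranked 3243 in the pooled list and 2545, 3889 and 5787 in replicates 1, 2 and 3, a mean of 4074 ± 1629. The summit lay inside the 3′ UTR of the neighbouring gene AdoR, an adenosine receptor, and nearer to the antisense RNA asRNA:CR46082, whose start was 106 bp away. When each summit was given to its nearest start alone, Tpi no longer counted as having a promoter summit. A weaker peak at rank 17017, in the 5′ UTR of Tpi, 306 bp downstream of its first start and 16 bp downstream of its other start, was present in replicates 1 and 3 and not in replicate 2.

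The genes of the glyceraldehyde-3-phosphate dehydrogenase pair, whose enzyme makes NADH, differed in their peaks. Gapdh2 (FBgn0001092, X 15868145 to 15869661, plus strand) carried the highest-ranked summit of the 10 genes, 167 bp upstream of its first start in a peak at 15867771 to 15868185. The peak ranked 29, 46 and 16 in replicates 1, 2 and 3, a mean of 30.3 ± 15.0 (SD, n = 3), with signals of 659, 447 and 473 in those lists and 1584 in the pooled list. No start of another gene lay within 500 bp, the nearest being that of CG16952 at 2205 bp, so the peak stood at Gapdh2 alone. Gapdh1 (FBgn0001091, 2R 7791901 to 7793380, minus strand) had no summit in its body or within 5 kb in the pooled list. Its nearest summit in either list was 10242 bp downstream of the nearest start and 8913 bp past the 3′ end, at rank 3132 and 346 bp upstream of asRNA:CR45108, so Gapdh1 too would count as having one with a 10 kb flank. The 300 bp upstream of the first start held 65.3% A or T at Gapdh2 and 69.3% at Gapdh1, beside a median of 63.0% over coding genes, so Gapdh1, the gene without a peak, was the richer of the pair. The sources used here do not say how reads that match both related copies were placed.

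By the rule of closest ranks in the 3 replicates, the promoters most like Gapdh2 were CG11309 and CG7632, which share 1 summit at rank 35, and aay, a phosphoserine phosphatase, at rank 37. Their replicate ranks were 30, 48 and 31 for the shared summit and 36, 44 and 34 for aay. The summed difference from Gapdh2 in log10 rank was 0.32 for the shared summit and 0.44 for aay. The comparison ran over the 2563 coding genes whose promoter summit lay in a peak of every replicate.

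Pgk, phosphoglycerate kinase, carries out the earlier of the 2 ATP-making steps, and its gene held more summits than any other member. The body and flanks of Pgk (FBgn0250906, 2L 2746880 to 2753068, minus strand) held 9 IDR summits, against a median of 1.5 for the 10 members and 1 for all coding genes. There were 9 or more at 112 coding genes (0.803%). Pgk is long, at 6189 bp against a median of 2166 bp for coding genes, and has 5 annotated starts. The 9 summits fell into 5 regions of overlapping peaks, 4 of them with a pair of summits 200 to 210 bp apart. The smallest distance between any neighbouring IDR summits was 199 bp, and 397 of the 6688 regions of the IDR list held more than 1 summit.

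The strongest Pgk summits were inside the gene, in an intron and away from its starts. The summits at ranks 206 and 267 shared 1 peak interval (2751817 to 2752334), 1093 bp and 893 bp downstream of the first Pgk start. They were nearer to Bacc, the gene on the other strand, at 470 bp and 270 bp upstream of a start of it. The summit at rank 206 lay in peaks ranked 157 in replicate 2 and 162 in replicate 3 and in none of replicate 1, while the one at rank 267 ranked 213, 2137 and 1122 in replicates 1, 2 and 3. In the replicate lists the best-ranked summit of the region was at 2752128, 2752050 and 2752028 in replicates 1, 2 and 3, in each case between the pooled summits at 2751975 and 2752175. The summits at ranks 696 and 3649 lay upstream of Pgk in an intron of Bacc.

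The 5 promoter summits of Pgk were weaker and lay at several of its starts. The best, at rank 1070, was 300 bp upstream of the most downstream start, in the 5′ UTR of longer transcripts, and ranked 845, 1325 and 918 in replicates 1, 2 and 3 (signals of 170, 105 and 109). The others ranked 2593, 5010, 5025 and 5452, with that at 5452 only 34 bp downstream of the first start. The summits at 5025 and 5452 also lay within 500 bp of starts of Bacc, the former 34 bp downstream of a start and the latter 199 bp upstream of another. In replicate 2 the summit at 5025 lay in no peak, and that at 5452 was in the top N of replicate 3 alone of the 3.

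**Figure D2:**
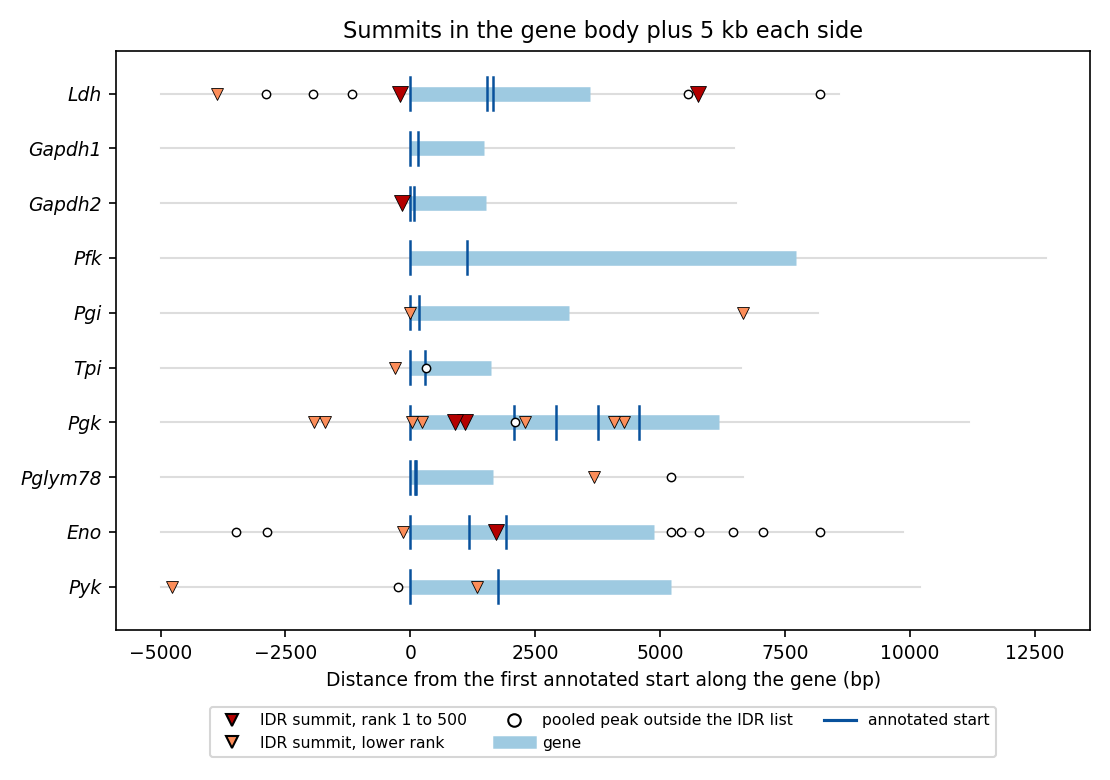
Map of the 10 genes drawn 5′ to 3′, with distance from the first annotated start in bp on the x axis and 1 row per gene; bars are genes, ticks starts, triangles IDR summits and open circles pooled peaks outside the IDR list. Pgk holds 9 IDR summits, Gapdh1 and Pfk none, and the top-ranked summits of Gapdh2, Eno and Ldh lie 167 to 202 bp upstream of a start.

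Pglym78, phosphoglycerate mutase, had no promoter summit. Its only IDR summit (gene FBgn0014869, 3R 29148248 to 29149901, plus strand) lay 3573 bp downstream of the nearest own start and 141 bp upstream of eIF2D, a translation initiation factor. The peak ranked 5143 in the pooled list and 4782, 12126 and 3927 in replicates 1, 2 and 3, so it was outside the top N of replicate 2. Pglym78 had the lowest upstream A or T share of the first starts of the 3 genes with no promoter summit, at 51.7%, beside 73.3% at Pfk and 69.3% at Gapdh1.

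Eno, enolase, makes the phosphoenolpyruvate that pyruvate kinase uses. Its gene (FBgn0000579, 2L 1724768 to 1729636, minus strand) has 3 starts with 2 transcripts each, and the strong peak stood at the most downstream of them. The summit at rank 74 lay 202 bp upstream of that start and 1717 bp downstream of the first, in an intron, in a peak at 1727688 to 1728168. It ranked 68, 85 and 76 in replicates 1, 2 and 3, a mean of 76.3 ± 8.50, with signals of 480, 361 and 298. The spread of these ranks was the smallest, relative to their mean, of the 7 promoter peaks. At the first start a weaker summit at rank 5783 stood 139 bp upstream and 112 bp upstream of CG31937 on the other strand, and ranked 6787, 5619 and 9242. The peak at the internal start was therefore the stronger in each of the 3 replicates. The promoters closest to Eno in replicate ranks were Hpf1, at rank 65 with a summed difference of 0.15, and CG5098 and CG5757, which share a summit at rank 86 with a difference of 0.21.

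Pyk, pyruvate kinase, makes pyruvate and the last ATP of the pathway. Its gene (FBgn0267385, 3R 22367536 to 22372746, plus strand) also had its IDR promoter summit at an internal start, 416 bp upstream of the start that lies 1746 bp inside the gene. That intronic peak ranked 3369 in the pooled list and 2402, 4273 and 6200 in replicates 1, 2 and 3 (signals of 88.4, 44.3 and 30.0). At the first start the peak 255 bp upstream, which lay 92 bp inside Polr3F, an RNA polymerase III subunit gene, was outside the IDR list and ranked 10465, 6360 and 8283. The intronic peak ranked above it in each replicate. With the first start of each gene alone, Pyk had no promoter summit. The strongest summit in the Pyk flank, at rank 1036, lay 4771 bp upstream of the gene and 130 bp upstream of CG7071, 132 bp upstream of Muted and 394 bp upstream of JMJD6.

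Ldh, lactate dehydrogenase, turns pyruvate into lactate. Its gene (FBgn0001258, 3L 6259105 to 6262694, minus strand) had its strongest summit in intergenic DNA 202 bp upstream of the first start, in a peak at 6262695 to 6263099. The peak ranked 160 in the pooled list and 126, 218 and 165 in replicates 1, 2 and 3, a mean of 170 ± 46.2, with signals of 391, 254 and 225. The nearest start of another gene, that of the noncoding RNA lncRNA:CR44522, was 503 bp from the summit, just outside the 500 bp window. A peak at rank 421 beyond the 3′ end lay 263 bp upstream of Best2, a chloride channel of the bestrophin family, and one at rank 2073 lay 3866 bp upstream of Ldh.

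Many of the 21 IDR summits in the bodies and flanks stood nearer to a neighbour than to the member. Of them, 12 were within 500 bp of a start of the member itself, 8 upstream and 4 downstream, and 12 were nearer to a start of another gene. In the replicates 14 lay in the top N of all 3, 6 in that of 2 and 1 in that of 1. Neither the nearness to other genes nor the replicate split was counted over all IDR summits, so both are descriptions. A start on the other strand within 1 kb upstream was present at Gapdh1, Pgi, Tpi, Pgk, Pglym78, Eno and Pyk, and absent at Gapdh2, Ldh and Pfk. The share of all coding genes with such a start was not counted, so these are descriptions of the neighbours. Of the genes with no such neighbour, Gapdh2 and Ldh had promoter summits at ranks 29 and 160, and Pfk had no summit in its body or flanks. A link between such a neighbour and the rank of a peak was not tested. The gene-internal Eno summit lay 813 bp from the nearest start of another gene, Rrp40.

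The summits of the members were about as rich in A and T as those of the series. In the 100 bp around them the share had a median of 68.0% over 21 summits, with a range of 49.0% to 89.0%, against 69.0% over all 7089, with quartiles of 63.0% and 74.0%. The 3 highest-ranked promoter summits were all above the upper quartile, at 77.0% for Gapdh2, 76.0% for Eno and 84.0% for Ldh. Several Pgk summits were below the lower quartile, such as 54.0% at rank 267 and 49.0% at rank 5025, while that at rank 2593 was the richest at 89.0%. At 14 of 21 the summit was richer than both windows centred 300 bp away and at 0 it was poorer than both, beside 72.8% richer over all IDR summits. In the replicates, the best-ranked peaks that held the members' summits were used, with no cut to the top N. Their mean share was 65.7%, 67.3% and 67.0%, or 66.7% ± 0.878 (SD, n = 3).

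**Figure D3:**
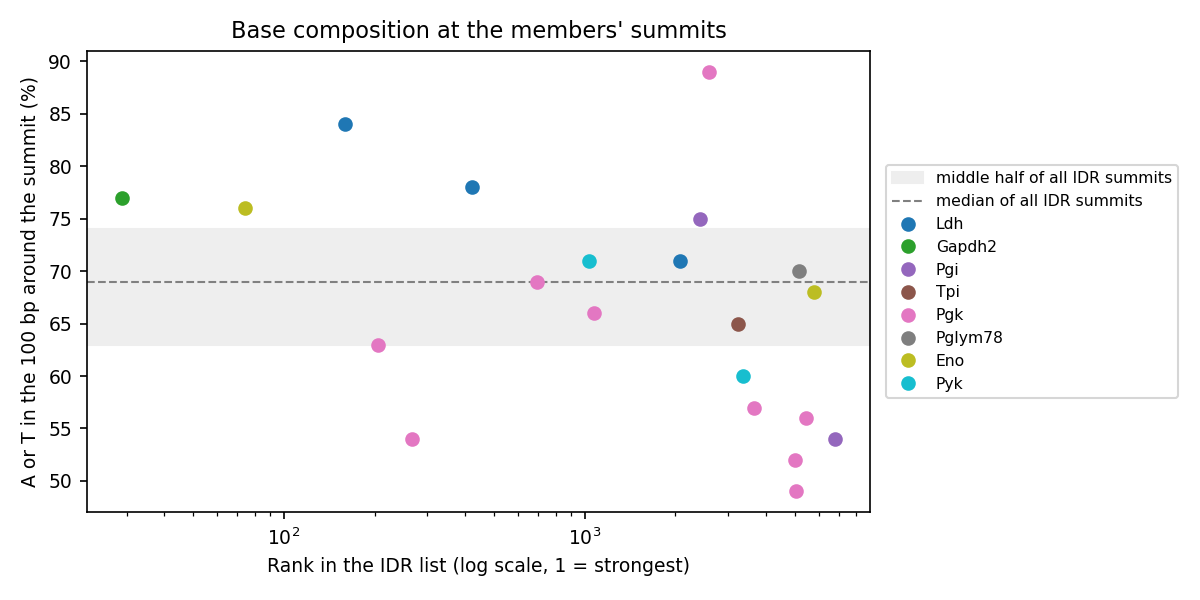
Percent A or T in the 100 bp around each of the 21 summits (y axis) by rank in the IDR list (x axis, log scale), coloured by gene; the dashed line is the median of all 7089 summits, 69.0%, and the grey band runs between the quartiles, 63.0% and 74.0%. The top-ranked summits of Gapdh2, Eno and Ldh lie above the band, the weaker Eno summit and the Ldh summit at rank 2073 lie inside it, and Pgk spans 49.0% to 89.0%.

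At least 1 of 11 consensus strings, sought in a 200 bp window on both strands, was found at 12 of the 21 summits, and 6 of the 11 strings were found at any of them. The share of all IDR summits with at least 1 of the strings was not counted, so 12 of 21 cannot be set against the whole list. The E-box CACGTG of the Myc and Mondo proteins, the ERR element AAGGTCA, the DRE string TATCGATA, the M1BP string GGTCACAC and the Mef2 core CTATTTAT were each at 0 of 21, and at 1.38%, 1.31%, 1.71%, 1.07% and 2.40% of all IDR summits in that order. With shares this low over the whole list, 0 of 21 says little. TATAAA was at 5 of 21, against 38.8% of all summits, and stood at Ldh (rank 160), Gapdh2 and 3 Pgk summits. The hypoxia core ACGTG, which also lies inside CACGTG, was at 2 of 21 and 11.6%, and its variant GCGTG at 5 of 21 and 14.0%. GAGAG was at 2 of 21 (21.9% of all), CATCNCTA at 1 (2.50%) and a run of 7 A at 1 (30.3%). A match is a description of these letters and not of a bound factor.

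The other genes of sugar metabolism, in 7 lists chosen by pathway with earlier results of these data known, held promoter summits at 30 of the 75 that were found in the annotation (40.0%), against 19.5% of coding genes. At 14 of the 30 the summit was also within 500 bp of a start of another gene, at 0 of 7 in sugar supply and at 4 of 5 both in the citric acid cycle and around pyruvate and NADH. The same share over all coding genes with a promoter summit was not counted, and the lists are small, so no difference between pathways is drawn from this. Among 13 other glycolysis genes, most of them extra copies of the enzymes above, only Hex-A, a hexokinase, had one (7.69%). It ranked 142, with 136, 144 and 145 in the replicates, and lay 211 bp upstream of the start. A summit in the body or flanks was found at 6 of the 13, beside 50.8% of all coding genes. Among them was Hex-C, another hexokinase gene, at rank 14, which is above any member summit. That summit was more than 500 bp from any Hex-C start, so it is not a promoter summit of Hex-C. Neither Ald1, the main aldolase gene, nor Pglym87 had a summit in the body or flanks. CG9961 and CG7069, copies of Pgk and Pyk that lie beside them, had as their best flank summits the member summits at ranks 1070 and 3369.

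Genes that supply sugar phosphates had promoter summits at 7 of 11 (63.6%). Glyp, glycogen phosphorylase, was the strongest at rank 130 (114, 154 and 159 in the replicates), 174 bp upstream of its start, and Pgm1, phosphoglucomutase, ranked 904. Glys, the glycogen synthase, ranked 2338 and Treh, trehalase, 4127. Pfrx, Glut1 and AGBE ranked 5258, 5303 and 6388. Of these, Pfrx ranked 9772, 3477 and 7675 in replicates 1, 2 and 3, and the AGBE summit lay in no peak of replicate 2. In glucose production, fbp (fructose-1,6-bisphosphatase, rank 985) and PCB (pyruvate carboxylase, rank 1426) had a promoter summit and Pepck1 and Pepck2 had none, 2 of 4 in all. The genes with a promoter summit thus included enzymes that build glycogen and that break it down.

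In the pentose phosphate route 4 of 7 genes had a promoter summit (57.1%). CG8036, a transketolase gene, ranked 184 at a summit shared with the tRNA gene tRNA:Tyr-GTA-1-8, while Taldo ranked 4175 at a summit shared with CG3735, Rpe 5851 and Zw, glucose-6-phosphate dehydrogenase, 6782. Around pyruvate and NADH it was 5 of 15 (33.3%), with Pdp at rank 1970, Adh at 3124, Mpc1 at 4152, Gpdh1 at 4503 and muc at 5848. Gpdh1, the glycerol-3-phosphate dehydrogenase that restores NAD+ beside Ldh, thus ranked far below it, with 4647, 4311 and 4305 in the replicates. In the citric acid cycle it was also 5 of 15, with Idh3g at rank 227 and Fum1 at 243, and mAcon1 at 1987, SdhC at 4782 and ScsbetaA at 6998. Of these, the summit of ScsbetaA alone was not shared, those of Idh3g and Fum1 being shared with CG4743 and ND-ASHI. Some weaker summits fell outside the top N of a replicate. Replicates 1, 2 and 3 ranked muc 4559, 9587 and 11044, and ScsbetaA 8932, 11544 and 6461. Taldo ranked 12327 and Rpe 10122 in replicate 3, and Zw ranked 9012 in replicate 1. Of the pentose phosphate genes with a promoter summit, CG8036 alone was thus in the top N of every replicate.

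Of 10 regulators of these genes, 6 had a promoter summit (60.0%). The sugar-responsive factor cbt ranked 144 at its promoter (174, 153 and 111 in the replicates) and had a summit at rank 2 in its body or flanks. ERR ranked 1249, 172 bp upstream of the start and shared with Atg18a. Shared summits also stood at bigmax (rank 2013, with Hmu) and Hph (3196, with lncRNA:CR45793), while Mondo ranked 5185 and sima, the Drosophila hypoxia-inducible factor, 5618. The Mondo summit lay in no peak of replicate 3, where Hph ranked 7228, and sima ranked 6636, 11333 and 3965 in replicates 1, 2 and 3. Myc had no promoter summit, but its body and flanks held 6, the best at rank 291.

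**Figure D4:**
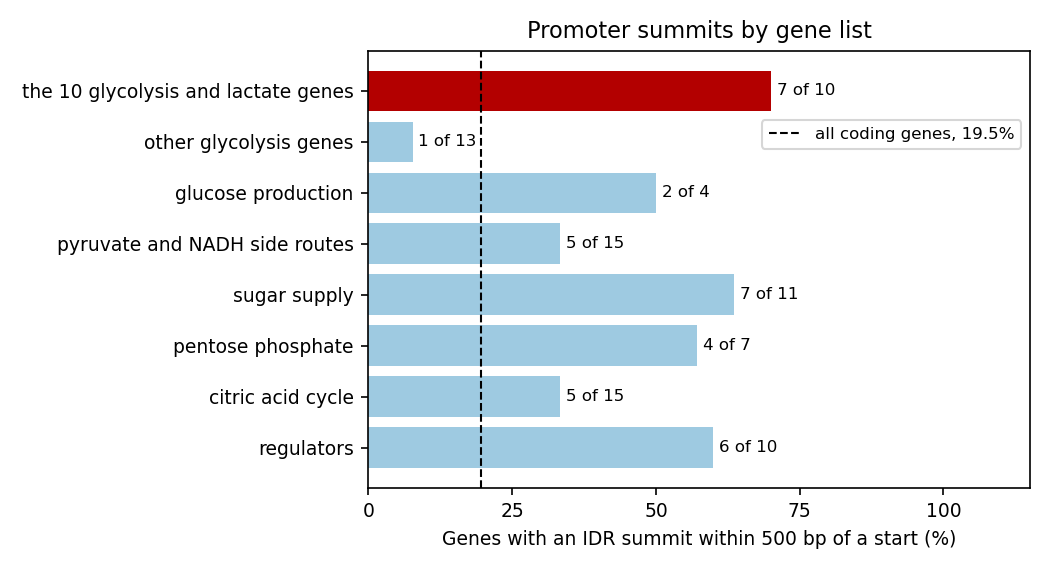
Percent of genes with a promoter summit (x axis) in the 10 glycolysis and lactate genes (red) and in 7 other lists (blue), with counts at the bar ends; the dashed line is the 19.5% of all coding genes. The 10 genes stand at 7 of 10 and the other glycolysis genes at 1 of 13.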

How the data were processed

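ChIP-seq of CG44002-eGFP was analysed in 1 group of 3 biological replicates, taken from the labels. The authors deposited narrowPeak lists on dm6. The deposited signal values rank the peaks, the deposited −log10 q-value was a single value throughout the IDR list and served only as an alternative ranking of the replicate lists, and the summit offset gave positions. Per the deposited inventories, each list came from alignments plus 1 control file. The aligner, caller and IDR cut-off were not given in the sources used here. Replicates 2 and 3 shared 227 identical peak intervals, with 0 for the other pairs, and no interval had the same signal in both lists. Depth is unknown. The lists on the older build were not used, and 0 columns belonged to other samples.

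Genes were taken from Ensembl release 115, without transposable elements. A summit within 500 bp of a start, or in the gene body plus 5 kb, was counted with Python 3.11.15 and numpy 2.4.6. Coordinates are 1-based. The members and lists were chosen with earlier results of these data known, so counts are set beside those of all coding genes without a test. Genes named are the members, genes sharing a promoter summit with them, list genes with a promoter summit, and the 3 genes closest in replicate ranks to Gapdh2 and to Eno. Other genes, among them those at flank summits and those without summits, were named after their values were seen. Of 78 names in the lists 75 genes were found: Tkt was not matched by name, 1 name was a synonym of a gene already listed (Ogdh), and 1 gene is not reported here. The counting code was checked on a simulated list of summits planted within 500 bp of starts, with no other peaks. It found 200 of 200 planted genes among 13945, as correct code must, which says nothing on detection in real data. Alternatives changed window, flank, list, start and replicates. The SD covers biological replicates of 1 line.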

Additional observations from a re-analysis of the deposited data

How the results depend on the processing

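Gapdh2, Pgk and Eno kept a promoter summit under every alternative tried for that count, and Ldh under all but the 200 bp window, with which the count was 4 of 10 (Gapdh2, Pgi, Pgk, Eno). The strongest Eno and Ldh summits, at ranks 74 and 160, both lay 202 bp upstream of a start, just outside the 200 bp window. Eno was kept there, and with the first start only, by its weaker summit at rank 5783 alone. Pgk was kept in the 200 bp window by its summit at rank 5452 alone. Pyk was lost with the first start only, Tpi with the nearest start only, and Pgi with peaks shared by all 3 top N lists and with the upper part of the list by signal. The settings without 1 replicate filtered the IDR list, and no peaks were called anew. An IDR peak was kept if each remaining replicate had a top N peak at its summit, so counts could only fall. They gave 6 to 7 members with a promoter summit, 7 to 8 with a summit in body and flank, and 15 to 17 summits. Pgi was lost without replicate 1 and without replicate 2, where replicate 3 had to hold its promoter summit. Pglym78 was lost without replicate 1 and without replicate 3, where replicate 2 had to hold its summit. Summits in the bodies and flanks numbered 21, and 32 with a 10 kb flank, 9 in the gene body alone and 38 in the pooled list. Joining overlapping peaks, an alternative chosen after seeing the data, gave 17. In the gene body alone 3 members held a summit, and with a 10 kb flank all 10 did. The A or T share of the members' summits averaged 66.9% in 100 bp and 64.3% in 200 bp. The share of coding genes with a promoter summit was 19.5%, and 12.7% with a 200 bp window, 23.2% with 1000 bp, 16.8% with the first start, 14.8% with the nearest start, 11.8% in the upper part of the list, 13.9% in the top N of all 3, 38.9% in the pooled list, 21.2% by interval overlap and 14.6% to 15.9% without 1 replicate. The share with a summit in body and flank was 50.8%, and 36.4% with a 2 kb flank, 66.3% with 10 kb, 14.0% in the body alone, 35.9% in the upper part of the list, 41.0% in the top N of all 3, 76.3% in the pooled list and 42.6% to 44.6% without 1 replicate. These follow from wider or narrower windows and from longer or shorter lists. Mean replicate ranks stayed within their spread in all 16 comparisons. Those alternatives, summits within 150 bp and ranking by q-value, mostly gave the same mean ranks again, so this outcome says little. In 100 bp, 5 of 11 string counts changed. No paired analysis was possible because the series has 1 group. Ranking the IDR list by q-value gave no value, since the q-value was constant there.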
